A study of Mus musculus with 20 samples.

Results

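Lymph nodes that drain the gut were compared with a node that drains skin, and the genes followed were those for which every gut library lay beyond all inguinal libraries, in 1 direction at all 4 gut positions. All nodes came from 9-week-old Rag1-/- (B6.129S7-Rag1tm1Mom/J) mice, in which no mature T or B lymphocytes form because the recombinase that assembles their receptors is missing. The gut-draining group held 16 libraries, 4 each from nodes of the duodenum, jejunum, ileum and ceco-colonic segment, and the inguinal group held 4, which together make up all 20 libraries of the series. Whole nodes were sequenced as polyA RNA, and the mutation is carried by every group, so no comparison with Rag1-sufficient nodes is made. Whether the 4 libraries of a position are separate animals is not stated in the labels, so a p-value here measures the spread between libraries, which may be technical.

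Among 29411 genes tested, 1386 (4.71%) had all gut libraries above the inguinal range and 1418 (4.82%) had all below it, 2804 in total. A level is given in CPM, estimated counts per M (mega counts) after TMM scaling (a factor per library that balances the bulk of genes). The distance on the log2 scale between the nearest gut and inguinal libraries is called the gap. The range rule uses the measured levels themselves, so levels and fold changes of these genes are descriptions and carry no test. The even split rested on the scaling: with plain CPM, 949 genes lay above and 2218 below, so the share above was 30.0% in place of 49.4%, and the median log2 difference of all genes moved to -0.08. Duodenal libraries 1 and 2 stood apart: summed markers of pancreatic acinar cells, which belong to a neighbouring gland, were 44654 and 24751 CPM there, 14.1 to 136 CPM in the other gut libraries, and 10.9 to 13.5 CPM in inguinal ones.

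A lymph node is built on reticular fibroblasts, blood and lymphatic vessels, and receives dendritic cells and lymphocytes from the tissue it drains. Mesenteric nodes form in visceral mesenchyme, and their high endothelial venules carry the addressin MAdCAM-1, whereas venules of peripheral nodes carry sulfated, fucosylated ligands of L-selectin. Dendritic cells and stroma of gut nodes are known for making retinoic acid, and skin nodes for receiving langerin-positive cells from epidermis and dermis.

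Transcription factors that mark body position held members far outside the inguinal range on both sides. Nkx2-3, a homeobox gene needed for splenic and gut vessel and stroma identity, measured 18.1 to 23.99 CPM in the gut libraries (median 22.3), against 0.0486, 0.013, 0.0306 and 0.0452 CPM in the inguinal libraries. Its gap of 8.29 was the widest among the 1386 genes above the range, and its fitted log2 fold change was 9.42 ± 0.17 (SE). Every SE of a fold change here was derived from the test, as the absolute log2 fold change over the square root of F. For genes with very few counts in a group, such as Nkx2-3 in inguinal nodes, it may be too small. Tcf21, a basic helix-loop-helix factor of visceral mesenchyme, measured 1.12 to 2.88 CPM in the gut libraries (median 1.41), against 0, 0.0228, 0 and 0.0388 CPM in the inguinal libraries, so that the gene was near the detection limit in inguinal nodes. Hand2, a related factor of splanchnic and heart mesenchyme, showed a lowest, median and highest gut level of 0.229, 0.82 and 4.69 CPM, against 0.027, 0.0585, 0.0408 and 0.0517 CPM in inguinal nodes. Its highest levels were those of duodenal libraries 2 and 3, in which summed smooth muscle markers were also highest (1615 and 1624 CPM), and its lowest those of the ceco-colonic nodes. Levels of Nkx3-2, a homeobox gene of spleen and pancreas mesenchyme, were 0.237 to 0.466 CPM, median 0.35, in gut and 0.0216 to 0.0766 CPM in inguinal nodes. The Hox cofactor Meis1 stood at 9.56 to 17.03 CPM, median 11.7, in gut and 5.5 to 6.15 CPM in inguinal nodes.

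In the other direction stood factors of limb, body wall and dermis. Tbx15, a T-box gene of dermal and limb mesenchyme, measured 0.069 to 0.289 CPM in the gut libraries (median 0.142), against 12.1, 10.9, 15.1 and 14.5 CPM in the inguinal libraries. En1, a homeobox gene of ventral limb ectoderm and dermal fibroblasts, showed a lowest, median and highest gut level of 0, 0.0226 and 0.0533 CPM, against 1.21, 1.26, 1.82 and 1.42 CPM in inguinal nodes. Emx2, a homeobox gene of the urogenital tract and limb girdle, had 0 to 0.0889 CPM across gut-draining nodes, with a median of 0.01, and 1.75, 1.74, 2.001 and 1.72 CPM in the 4 inguinal nodes. All 3 stayed under 1 CPM in every gut library, and the fitted log2 fold changes were -6.51 ± 0.17, -6.03 ± 0.26 and -6.74 ± 0.44 (SE). Less extreme was Twist1, a mesenchymal bHLH factor, with 0.157 to 0.56 CPM, median 0.367, in gut and 3.44 to 4.03 CPM in inguinal nodes. Tbx18 had 0.272 to 2.04 CPM, median 0.465, in gut and 6.53 to 8.18 CPM in inguinal nodes, and Shox2 0.0928 to 0.469 CPM, median 0.261, in gut and 1.63 to 2.49 CPM in inguinal nodes. The limb mesenchyme gene Prrx1 was well expressed at both places, with 22.8 to 34.1 CPM, median 25.8, in gut and 63.8 to 74.6 CPM in inguinal nodes. Across the list of 54 position factors tested, 18 were called higher and 18 lower by edgeR's quasi-likelihood test (Benjamini-Hochberg adjustment over every gene tested, threshold 0.05), 33.3% each way. Among all genes tested 26.3% were called, 13.4% higher and 12.9% lower. The list had 6 members above and 11 below the inguinal range and a median log2 fold change of -0.07, against 0.00 over all genes. Hox genes, which set the body axis, counted 4 (12.9%) higher and 13 (41.9%) lower of 31, with Hoxc4 above the range and Hoxa7, Hoxb9 and Hoxc9 below it. The count of Hox genes called higher was 2 without duodenal library 2 or without inguinal library 2, 3 or 4.

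**Figure D1:**
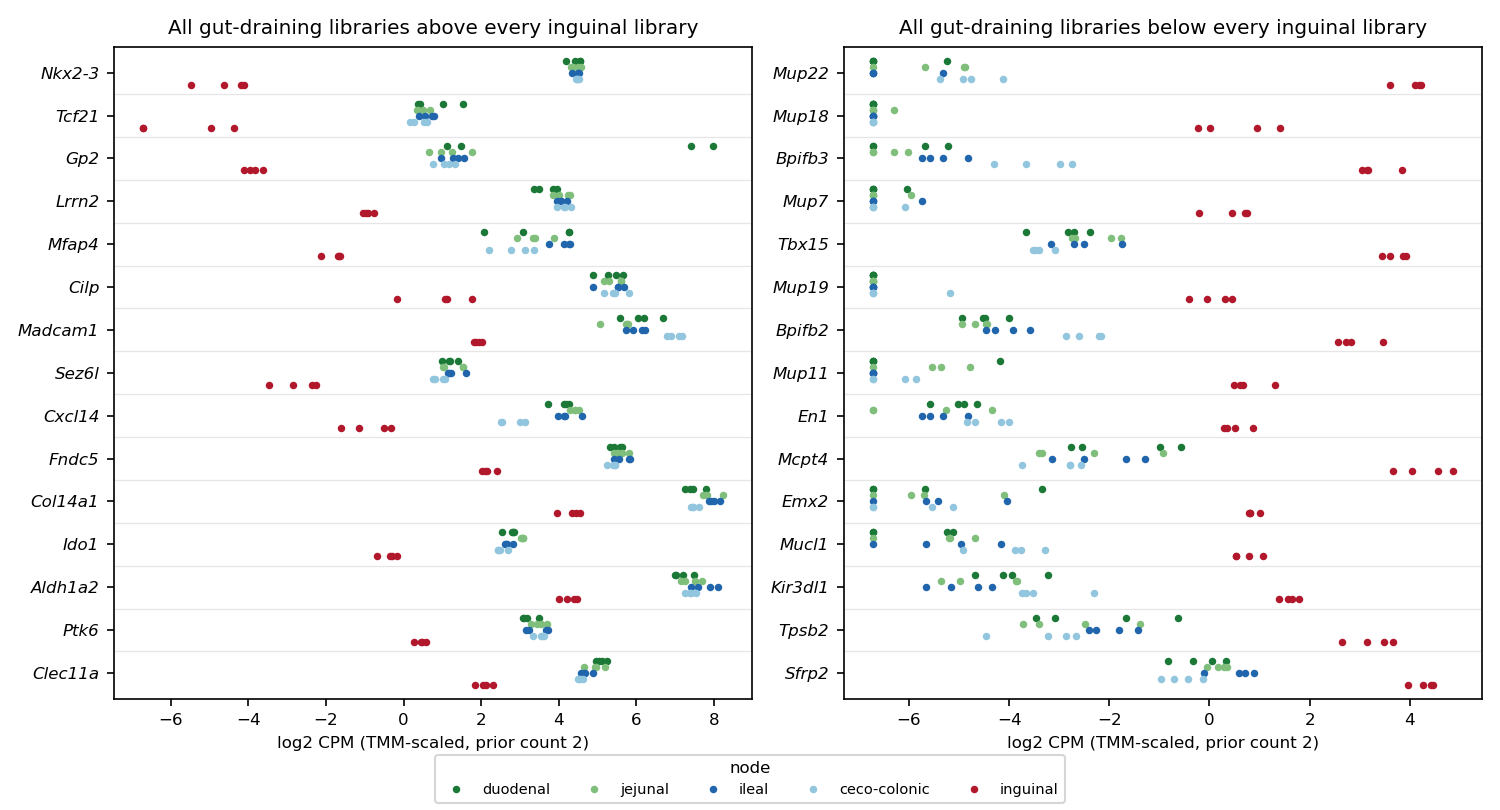
Levels of the 15 genes above (left panel) and the 15 below (right panel) the inguinal range with the widest gap at a mean of at least 1 CPM in the higher group. Each point is 1 library, with the gut positions above the inguinal node within each gene, on a log2 CPM scale with a prior count of 2. The left edge of the right panel marks libraries with a count of 0, and Nkx2-3 shows the widest separation of the left panel.

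Most collagen and matrix genes outside the range lay above it. Lrrn2, a leucine-rich repeat membrane protein, measured 10.3 to 19.9 CPM in the gut libraries (median 16.3), against 0.578, 0.478, 0.516 and 0.504 CPM in the inguinal libraries. Mfap4, a microfibril-associated glycoprotein, measured 4.17 to 19.4 CPM in the gut libraries (median 10.4), against 0.302, 0.218, 0.306 and 0.31 CPM in the inguinal libraries. Cilp, a matrix protein of cartilage and fibroblasts, showed a lowest, median and highest gut level of 29.3, 44.2 and 55.9 CPM, against 0.88, 2.08, 3.4 and 2.16 CPM in inguinal nodes. Mfap4 was among the highest in duodenal libraries 2 and 3, with the smooth muscle markers, yet its lowest gut library exceeded every inguinal one. Col14a1, a fibril-associated collagen, had 152 to 302 CPM across gut-draining nodes, with a median of 216, and 21.9, 15.5, 20.2 and 23.5 CPM in the 4 inguinal nodes, and was among the more abundant genes of this kind. The proteoglycan gene Lum stood at 170.1 to 287 CPM, median 241, in gut and 29.8 to 68.3 CPM in inguinal nodes. The fibronectin gene Fn1 stood at 625 to 1112 CPM, median 843, in gut and 204 to 321 CPM in inguinal nodes. Of 66 collagen and matrix genes tested, 34 (51.5%) were called higher and 8 (12.1%) lower, 14 lay above and 1 below the range, and the median log2 fold change was 0.34. The 1 below was Col23a1, a transmembrane collagen, with a lowest, median and highest gut level of 14.5, 16.6 and 19.6 CPM, against 21.3, 25.2, 22.4 and 26.3 CPM in inguinal nodes. Without duodenal library 3 the count called lower was 13. Members called higher held basement membrane chains (Col4a1, Col4a2, Lama1, Lamb1), fibrillar collagens (Col3a1, Col5a2, Col11a1) and small proteoglycans (Dcn, Bgn, Ogn). A further 24 members were not called. Col11a1 was not higher at every position. Its log2 CPM was 0.12 to 2.02 in duodenal and -3.23 to -2.47 in ceco-colonic libraries, against -3.38 to -1.58 in inguinal ones. As in any bulk sample, more cells of a type and more RNA per cell cannot be told apart.

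Signals that fibroblasts exchange moved with the matrix genes in some branches. Wnt2b, a Wnt ligand, measured 14.8 to 35.1 CPM in the gut libraries (median 29.9), against 3.91, 3.11, 3.02 and 3.64 CPM in the inguinal libraries, and was lowest among gut nodes at the ceco-colonic position. Sfrp4, a secreted Wnt antagonist, showed a lowest, median and highest gut level of 6.97, 16.3 and 25.8 CPM, against 0.772, 1.21, 1.36 and 2.22 CPM in inguinal nodes, whereas its relative Sfrp2 had a lowest, median and highest gut level of 0.499, 0.993 and 1.84 CPM, against 15.6, 22.2, 19.1 and 21.5 CPM in inguinal nodes. The 2 antagonists of 1 family thus lay on opposite sides. Dkk3, a Dickkopf family member, stood at 33.01 to 44.9 CPM, median 39.1, in gut and 10.5 to 13.3 CPM in inguinal nodes. The Wnt enhancer Rspo3 stood at 4.07 to 15.2 CPM, median 9.24, in gut and 2.78 to 3.81 CPM in inguinal nodes. The BMP antagonist Grem1 had 45.8 to 193 CPM, median 84.2, in gut and 27.8 to 42.6 CPM in inguinal nodes. Below the range lay Bmp7, a BMP ligand, with 3.77 to 7.14 CPM, median 5.53, in gut and 8.22 to 9.01 CPM in inguinal nodes. Fst, the activin antagonist follistatin, was also below, with 0.707 to 2.33 CPM, median 1.38, in gut and 2.95 to 3.71 CPM in inguinal nodes. In the list of 42 Wnt, BMP and hedgehog genes, 16 (38.1%) were called higher and 8 (19%) lower, with 10 above and 5 below the range and a median log2 fold change of 0.27. Axon guidance genes, expressed by stroma as well as nerve, split 12 (32.4%) higher and 11 (29.7%) lower of 37. The guidance cue Slit2 lay above the range at 1.71 to 12.7 CPM, median 6.998, in gut and 0.434 to 1.49 CPM in inguinal nodes. Without inguinal library 2 the count of that list called higher was 6.

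**Figure D2:**
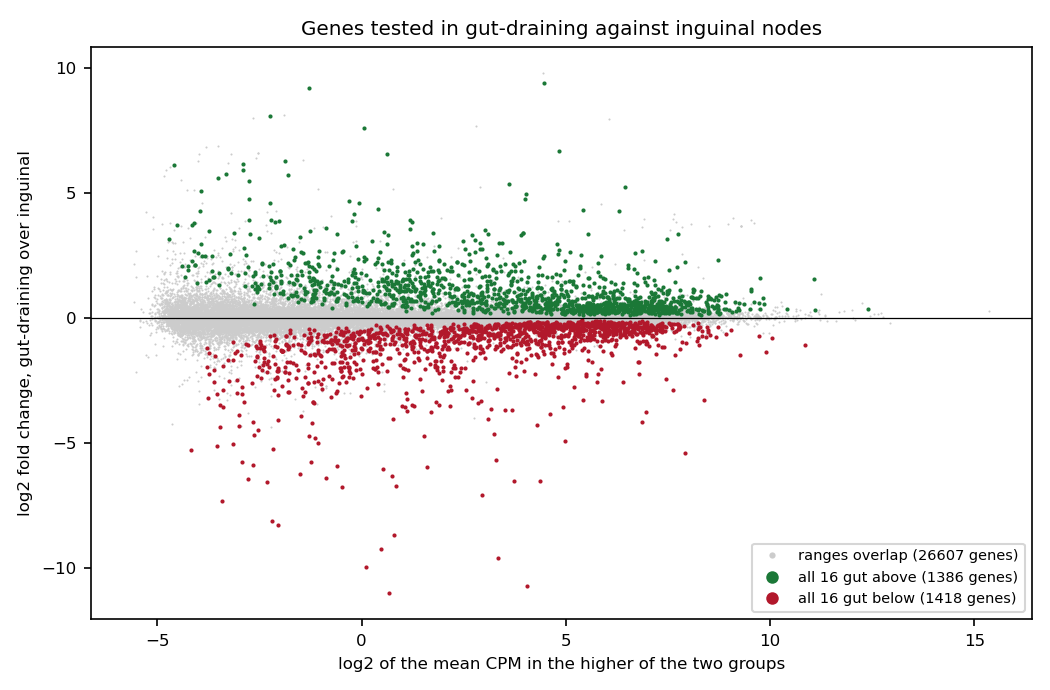
Fitted log2 fold change of gut-draining over inguinal nodes for the 29411 genes tested, against the log2 mean CPM of the higher group. Green points have all 16 gut libraries above the inguinal range (1386 genes), red points all below (1418 genes), and grey points have overlapping ranges.

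Molecules that guide lymphocytes into nodes lay on both sides of the range, and not wholly by type of address. Madcam1, the mucosal vascular addressin, measured 33.3 to 144 CPM in the gut libraries (median 68.02), against 3.52, 3.85, 3.67 and 4.05 CPM in the inguinal libraries, a log2 fold change of 4.29 ± 0.20 (SE). Every gut library exceeded every inguinal one, with the highest levels in the ceco-colonic nodes (110.4 to 144 CPM), and the gut positions differed among themselves (adjusted p = 7.73e-05 by edgeR's quasi-likelihood F-test). Several genes of the L-selectin ligand pathway of peripheral nodes lay on the other side. Glycam1, a secreted L-selectin ligand of high endothelial venules, showed a lowest, median and highest gut level of 68.1, 212 and 424 CPM, against 714, 613, 549 and 579 CPM in inguinal nodes. Chst4, the sulfotransferase that modifies these ligands, had 2.63 to 15.1 CPM across gut-draining nodes, with a median of 10.4, and 24.6, 39.3, 36.2 and 30.6 CPM in the 4 inguinal nodes. Fut7, the fucosyltransferase, stood at 6.71 to 26.6 CPM, median 18.1, in gut and 27.6 to 43.4 CPM in inguinal nodes. Chst2, a second sulfotransferase of the pathway, was not called, with 29.9 to 68.3 CPM, median 49.3, in gut and 44.3 to 60.7 CPM in inguinal nodes (adjusted p = 0.355 by edgeR's quasi-likelihood test). In gut nodes Glycam1 and Chst4 were lowest at the ileal position. The integrin chains that together bind MAdCAM-1 parted by small margins. Itga4, a chain shared with other integrins, lay above the range (286 to 435 CPM, median 339, in gut and 233 to 253 CPM in inguinal nodes). Its partner Itgb7 lay below it (103 to 153 CPM, median 137, in gut and 163 to 184 CPM in inguinal nodes). Gpr15, a receptor known for homing to the colon, was also below (2.74 to 4.39 CPM, median 3.54, in gut and 6.71 to 8.81 CPM in inguinal nodes). Of 27 homing genes, 4 (14.8%) were called higher and 15 (55.6%) lower, with 2 above and 9 below the range. Of 30 blood endothelial genes 4 (13.3%) were called higher and 7 (23.3%) lower. Among all genes tested the shares were 13.4% and 12.9%, so the share called higher was near that of all genes. Of 23 lymphatic endothelial genes 11 (47.8%) were called higher and 2 lower, and the count of 2 was 1 without inguinal library 1, 2 or 3. Only 2 of the 23 lay above the range and 0 below it, and 20 were called in the F-test among gut positions. With all gut libraries fitted as 1 group, 7 were called higher.

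Chemokines gave large differences both ways. Cxcl14, a chemokine of fibroblasts and epithelium, measured 5.73 to 24.4 CPM in the gut libraries (median 17.7), against 0.696, 0.319, 0.444 and 0.795 CPM in the inguinal libraries. Ccl8, a macrophage chemokine, had a lowest, median and highest gut level of 1.69, 3.16 and 52.1 CPM, against 244, 286, 191 and 248 CPM in inguinal nodes. Cxcl13, which draws B cells into follicles, had a lowest, median and highest gut level of 4.68, 22.7 and 83.5 CPM, against 191, 235, 174 and 182 CPM in inguinal nodes. Both were highest, among the gut nodes, at the ceco-colonic position, where they remained below the inguinal range. Cxcr5, the receptor of CXCL13, lay on the other side at 1.68 to 6.03 CPM, median 3.43, in gut and 0.862 to 1.12 CPM in inguinal nodes. Of the receptors below the range, Ccr10, which binds a keratinocyte chemokine, measured 0.57 to 1.14 CPM in the gut libraries (median 0.931), against 11.98, 8.99, 11.5 and 13.2 CPM in the inguinal libraries. Ccr8, found on skin-resident lymphocytes, stood at 1.06 to 3.69 CPM, median 2.26, in gut and 6.07 to 7.74 CPM in inguinal nodes. Cxcr3, a receptor for interferon-induced chemokines, stood at 16.7 to 21.6 CPM, median 19.8, in gut and 34.7 to 41.02 CPM in inguinal nodes. Among 37 chemokines 13 (35.1%) were called higher and 9 (24.3%) lower. Among 24 receptors the counts were 7 and 7 (29.2% each), with 5 above and 4 below the range. Above it was Ccr1, an inflammatory chemokine receptor, with 5.08 to 13.6 CPM, median 7.79, in gut and 2.53 to 3.39 CPM in inguinal nodes. Cx3cr1, the fractalkine receptor, had 80.2 to 114 CPM, median 99.8, in gut and 57.1 to 73.9 CPM in inguinal nodes.

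Retinoid genes and cytokines also divided by member. Aldh1a2, the enzyme that makes retinoic acid from retinal, measured 128 to 274 CPM in the gut libraries (median 169.99), against 22.03, 16.1, 20.9 and 18.6 CPM in the inguinal libraries. Its lowest gut library stood well over its highest inguinal one. Lrat, which esterifies retinol for storage, stood at 6.67 to 23.9 CPM, median 13.3, in gut and 2.54 to 3.47 CPM in inguinal nodes. The retinol transporter Stra6 had 4.42 to 13.5 CPM, median 9.15, in gut and 1.69 to 3.25 CPM in inguinal nodes. The retinoic acid receptor gene Rarb had 0.844 to 3.81 CPM, median 2.5, in gut and 0.437 to 0.808 CPM in inguinal nodes. Cyp26b1, which degrades retinoic acid, had a lowest, median and highest gut level of 19.05, 29.3 and 69.8 CPM, against 79.2, 88.5, 132 and 133 CPM in inguinal nodes. The list of 29 held 10 called higher (34.5%) and 8 lower (27.6%), with 6 above and 3 below the range. Of the cytokines, Il6 showed a lowest, median and highest gut level of 1.39, 2.28 and 4.33 CPM, against 0.448, 0.423, 0.322 and 0.336 CPM in inguinal nodes. Ceco-colonic libraries 1, 2 and 4 were its highest. The alarmin gene Il33 showed a lowest, median and highest gut level of 240.4, 311 and 404 CPM, against 117, 145, 157 and 171 CPM in inguinal nodes. Tslp, an epithelial and stromal cytokine, lay below the range at 1.08 to 1.57 CPM, median 1.27, in gut and 2.69 to 3.46 CPM in inguinal nodes. The platelet-derived growth factor gene Pdgfc was also below, at 11.7 to 18.4 CPM, median 15.2, in gut and 22.7 to 24.9 CPM in inguinal nodes. Il2, a lymphocyte growth factor, was under 1 CPM in all libraries, with 0.0776 to 0.345 CPM, median 0.175, in gut and 0.556 to 0.837 CPM in inguinal nodes. In the list of 56 cytokines and growth factors, 17 (30.4%) were called higher and 16 (28.6%) lower.

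Mast cell genes gave, of the 27 lists, the largest share below the range. Mcpt4, a chymase of connective tissue mast cells, measured 0.0654 to 0.661 CPM in the gut libraries (median 0.16), against 16.4, 29.1, 12.7 and 23.6 CPM in the inguinal libraries, a log2 fold change of -6.52 ± 0.33 (SE). Tpsb2, a mast cell tryptase, measured 0.0356 to 0.64 CPM in the gut libraries (median 0.159), against 8.8, 12.6, 6.29 and 11.2 CPM in the inguinal libraries. Cpa3, mast cell carboxypeptidase, stood at 0.242 to 1.05 CPM, median 0.514, in gut and 5.12 to 11.1 CPM in inguinal nodes. Cma1, another chymase, stood at 0.721 to 1.69 CPM, median 0.971, in gut and 8.1 to 18.5 CPM in inguinal nodes. Inguinal libraries 2 and 4 were the higher ones for all 4 genes, and the lowest inguinal library still exceeded every gut library. The IgE receptor chain Fcer1a was low at both places (0.0113 to 0.0826 CPM, median 0.0394, in gut and 0.271 to 0.654 CPM in inguinal nodes). Of 18 mast cell genes tested 12 (66.7%) were called lower and 2 higher, 11 lay below the range, and the median log2 fold change was -2.86. Called higher was Kit, the stem cell factor receptor that innate lymphoid cells also carry, with 80.2 to 144 CPM, median 115, in gut and 74.7 to 81.4 CPM in inguinal nodes. Its log2 fold change was 0.54 ± 0.10 (SE, adjusted p = 0.000275 by edgeR's quasi-likelihood test). Mcpt1, a chymase of mucosal mast cells, was called higher with 0 to 0.173 CPM, median 0.022, in gut and 0 to 0.00646 CPM in inguinal nodes. Its adjusted p was 0.0121 by the same test, but it rested on very few counts and its ranges overlapped, so no fold is given. Granulocyte genes of the list of 21 were called lower in 10 cases (47.6%) and higher in 1 (4.76%). Below the range was the neutrophil granule gene Camp, with 0.0736 to 0.539 CPM, median 0.301, in gut and 0.781 to 2.23 CPM in inguinal nodes. Ngp, another such gene, had 0.374 to 1.98 CPM, median 1.35, in gut and 3.78 to 7.59 CPM in inguinal nodes. Above the range was the eosinophil granule gene Prg2, with 0.674 to 4.94 CPM, median 1.21, in gut and 0.324 to 0.666 CPM in inguinal nodes. The count called higher was 2 without ceco-colonic library 1, duodenal library 1, inguinal library 2 or jejunal library 2.

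Macrophage and dendritic cell genes split within each list. Timd4, a phosphatidylserine receptor of resident macrophages, measured 23.2 to 52.5 CPM in the gut libraries (median 32.4), against 354, 329, 307 and 336 CPM in the inguinal libraries, a log2 fold change of -3.30 ± 0.10 (SE). Cd209f, a C-type lectin gene of macrophages, stood at 1.61 to 13.7 CPM, median 6.72, in gut and 53.9 to 68.8 CPM in inguinal nodes. Its paralog Cd209g stood at 0.78 to 5.69 CPM, median 2.61, in gut and 27.5 to 38.2 CPM in inguinal nodes. The folate receptor gene Folr2 had 4.07 to 16.6 CPM, median 8.94, in gut and 46.3 to 59.3 CPM in inguinal nodes. All 7 Cd209 genes tested lay below the range, and so did 5 of 12 Cd300 genes, all of the Cd300ld group. These families were singled out after their values were seen, and their members share sequence, so reads may be split between copies. Cd300ld4 had a lowest, median and highest gut level of 3.86, 5.61 and 13.997 CPM, against 106, 121, 111 and 126 CPM in inguinal nodes. Cd300ld5 had a lowest, median and highest gut level of 5.12, 8.07 and 18.99 CPM, against 119, 130.3, 118 and 133 CPM in inguinal nodes. Above the range lay Fcna, the macrophage lectin ficolin A, with a lowest, median and highest gut level of 48.8, 109.99 and 169 CPM, against 20.9, 12.3, 14.6 and 18.04 CPM in inguinal nodes. Gpnmb, a lysosomal glycoprotein, was above it too, with 42.04 to 90.6 CPM, median 62.8, in gut and 15.7 to 32.5 CPM in inguinal nodes. Of 36 macrophage genes 11 (30.6%) were called higher and 15 (41.7%) lower, 3 above and 10 below the range. Csf1r, C1qa and C1qb were among those called higher, and Mrc1 and Cd68 among those called lower. At the duodenal position Csf1r, C1qa and C1qb overlapped the inguinal range. Their log2 CPM there was 9.14 to 9.59, 8.65 to 9.07 and 8.83 to 9.11, against 9.22 to 9.40, 8.83 to 8.95 and 9.05 to 9.18 in inguinal nodes.

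Of the dendritic cell genes, Cd207, which encodes langerin, measured 0.0849 to 1.34 CPM in the gut libraries (median 0.356), against 11.5, 7.37, 9.47 and 9.42 CPM in the inguinal libraries. Mgl2, a lectin of dermal dendritic cells and macrophages, showed a lowest, median and highest gut level of 4.44, 9.44 and 19.1 CPM, against 41.5, 38.7, 49.99 and 51.01 CPM in inguinal nodes. Cd209a, a DC-SIGN lectin, showed a lowest, median and highest gut level of 8.1, 14.5 and 22.7 CPM, against 50.01, 50.6, 54.8 and 44.8 CPM in inguinal nodes. For all 3 each inguinal library exceeded each gut library. Clec4a4, an inhibitory lectin of a dendritic subset, lay above the range at 1.75 to 4.6 CPM, median 2.73, in gut and 0.834 to 1.01 CPM in inguinal nodes. Ccr7, the receptor of migrating dendritic cells, lay above it by a small margin (645 to 1021 CPM, median 858, in gut and 508 to 628 CPM in inguinal nodes). Of 31 dendritic cell genes 8 (25.8%) were called higher and 11 (35.5%) lower. Ido1, the tryptophan-degrading enzyme of dendritic cells and other cells, measured 5.35 to 8.45 CPM in the gut libraries (median 6.72), against 0.88, 0.797, 0.771 and 0.614 CPM in the inguinal libraries.

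Genes of innate lymphocytes lay on both sides. Arg1, arginase 1, which macrophages and type 2 innate lymphoid cells make, measured 3.07 to 14.5 CPM in the gut libraries (median 8.05), against 0.632, 0.878, 0.761 and 0.678 CPM in the inguinal libraries. Il1rl1, the IL-33 receptor of that type, stood at 12.04 to 41.96 CPM, median 27.1, in gut and 6.77 to 8.59 CPM in inguinal nodes. Klrg1, a lectin-like receptor, stood at 8.5 to 20.5 CPM, median 12.7, in gut and 3.62 to 5.27 CPM in inguinal nodes. Gata3 and Il17rb lay above the range as well. The type 2 cytokine genes were not called: Il5 had 0.0908 to 0.267 CPM, median 0.155, in gut and 0.211 to 0.26 CPM in inguinal nodes (adjusted p = 0.063 by edgeR's quasi-likelihood test). Il13 had 0.98 to 2.23 CPM, median 1.39, in gut and 1.39 to 1.9 CPM in inguinal nodes (adjusted p = 0.284 by the same test). Gzmc, a granzyme, had a lowest, median and highest gut level of 1.98, 3.8 and 23.2 CPM, against 33.4, 34.7, 34.9 and 43.2 CPM in inguinal nodes. Il18r1, an IL-18 receptor chain, stood at 38.3 to 84.3 CPM, median 62.9, in gut and 118 to 130.1 CPM in inguinal nodes. Kir3dl1, an inhibitory killer cell receptor, measured 0.0103 to 0.192 CPM in the gut libraries (median 0.0519), against 3.15, 2.62, 3.43 and 2.95 CPM in the inguinal libraries. Genes of killer cells called lower were Prf1, Gzma, Ncr1, Nkg7, Eomes, Klrk1 and Klrb1c. Of 34 members 9 (26.5%) were called higher and 12 (35.3%) lower.

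Interferon-stimulated genes had, of the 27 lists, the largest share above the range. The promoters of a few are shown, with the matches to 1 response element that was counted. Windows run 250 bases upstream to 50 bases downstream of the RefSeq start (GRCm38.p6), and capitals mark the interferon-stimulated response element searched, GAAANNGAAA on either strand. Overlapping matches were allowed.
Isg15, chr4:156200769-156201068, minus strand: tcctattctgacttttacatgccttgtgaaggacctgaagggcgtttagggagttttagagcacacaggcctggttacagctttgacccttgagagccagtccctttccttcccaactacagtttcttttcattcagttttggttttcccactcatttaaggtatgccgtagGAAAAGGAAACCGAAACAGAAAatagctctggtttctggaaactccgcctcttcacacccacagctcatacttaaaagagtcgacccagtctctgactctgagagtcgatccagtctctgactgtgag
Ifit1, chr19:34640639-34640938, plus strand: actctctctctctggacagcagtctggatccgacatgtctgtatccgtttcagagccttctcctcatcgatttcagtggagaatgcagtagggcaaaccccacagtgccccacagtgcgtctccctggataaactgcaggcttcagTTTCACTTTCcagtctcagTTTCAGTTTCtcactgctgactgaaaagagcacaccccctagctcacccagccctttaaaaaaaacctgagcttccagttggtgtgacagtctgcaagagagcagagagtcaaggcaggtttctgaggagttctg
Cxcl10, chr5:92348840-92349139, minus strand: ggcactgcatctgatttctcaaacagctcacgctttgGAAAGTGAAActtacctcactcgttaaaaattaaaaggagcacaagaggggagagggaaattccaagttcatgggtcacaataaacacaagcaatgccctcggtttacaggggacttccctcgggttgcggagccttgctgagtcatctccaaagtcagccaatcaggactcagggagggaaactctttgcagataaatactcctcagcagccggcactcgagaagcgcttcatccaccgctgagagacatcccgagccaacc
Oasl1, chr5:114922990-114923289, plus strand: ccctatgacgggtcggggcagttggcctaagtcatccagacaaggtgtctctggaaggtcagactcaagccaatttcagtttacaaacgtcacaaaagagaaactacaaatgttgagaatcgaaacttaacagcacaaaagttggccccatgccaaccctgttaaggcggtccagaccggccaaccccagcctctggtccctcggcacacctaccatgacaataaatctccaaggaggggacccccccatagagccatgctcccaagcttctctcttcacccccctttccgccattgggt
Isg15 holds 3 overlapping matches, Ifit1 holds 2, Cxcl10 holds 1, and the letters are not in the Oasl1 window. Of all 32851 promoter windows 3.44% hold the motif, and of the 19584 windows of genes tested 3.26%. The share was 4.94% of 1195 windows of genes above the inguinal range, 3.29% of 1247 windows of genes below it, and 57.7% (15 of 26 windows, from 23 of the 33 symbols) of the interferon list. A match describes letters, not binding.

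Oasl1, of the oligoadenylate synthetase-like family, measured 55.02 to 167 CPM in the gut libraries (median 83.4), against 15.2, 29.3, 17.6 and 26.01 CPM in the inguinal libraries. Isg15, a ubiquitin-like modifier, measured 68.5 to 225 CPM in the gut libraries (median 108), against 32.1, 52.9, 27.6 and 41.9 CPM in the inguinal libraries. Cxcl10, an interferon-induced chemokine, measured 77.99 to 204 CPM in the gut libraries (median 111), against 30.1, 52.3, 44.6 and 51.1 CPM in the inguinal libraries. In each case the lowest gut library lay above the highest inguinal one, and ileal library 2 was the highest of all for the 3 genes. The log2 fold changes were 2.01 ± 0.21, 1.59 ± 0.22 and 1.43 ± 0.19 (SE). Ifit1, an RNA-binding antiviral protein, stood at 46.5 to 143 CPM, median 69.99, in gut and 25.1 to 42.4 CPM in inguinal nodes. Of 31 interferon genes tested 30 (96.8%) were called higher and none lower, with 15 above the range and a median log2 fold change of 0.78. The exception was Ifi27 (57.7 to 77.6 CPM, median 65.4, in gut and 56.3 to 66.9 CPM in inguinal nodes; adjusted p = 0.148 by edgeR's quasi-likelihood test). Across the alternatives tried the count called higher ran from 28 to 30. Antigen presentation genes had 11 of 22 (50%) called higher and none lower. Among them Cd1d1, which presents lipids, had 70.3 to 155 CPM, median 105, in gut and 27.7 to 32.1 CPM in inguinal nodes. The class II modulator gene H2-Oa had 34.1 to 59.96 CPM, median 46.3, in gut and 27.97 to 32.4 CPM in inguinal nodes. Tapbp, of the class I loading complex, had 503 to 695 CPM, median 587, in gut and 423 to 488 CPM in inguinal nodes. Neither list had a member called lower by edgeR under any alternative tried.

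**Figure D3:**
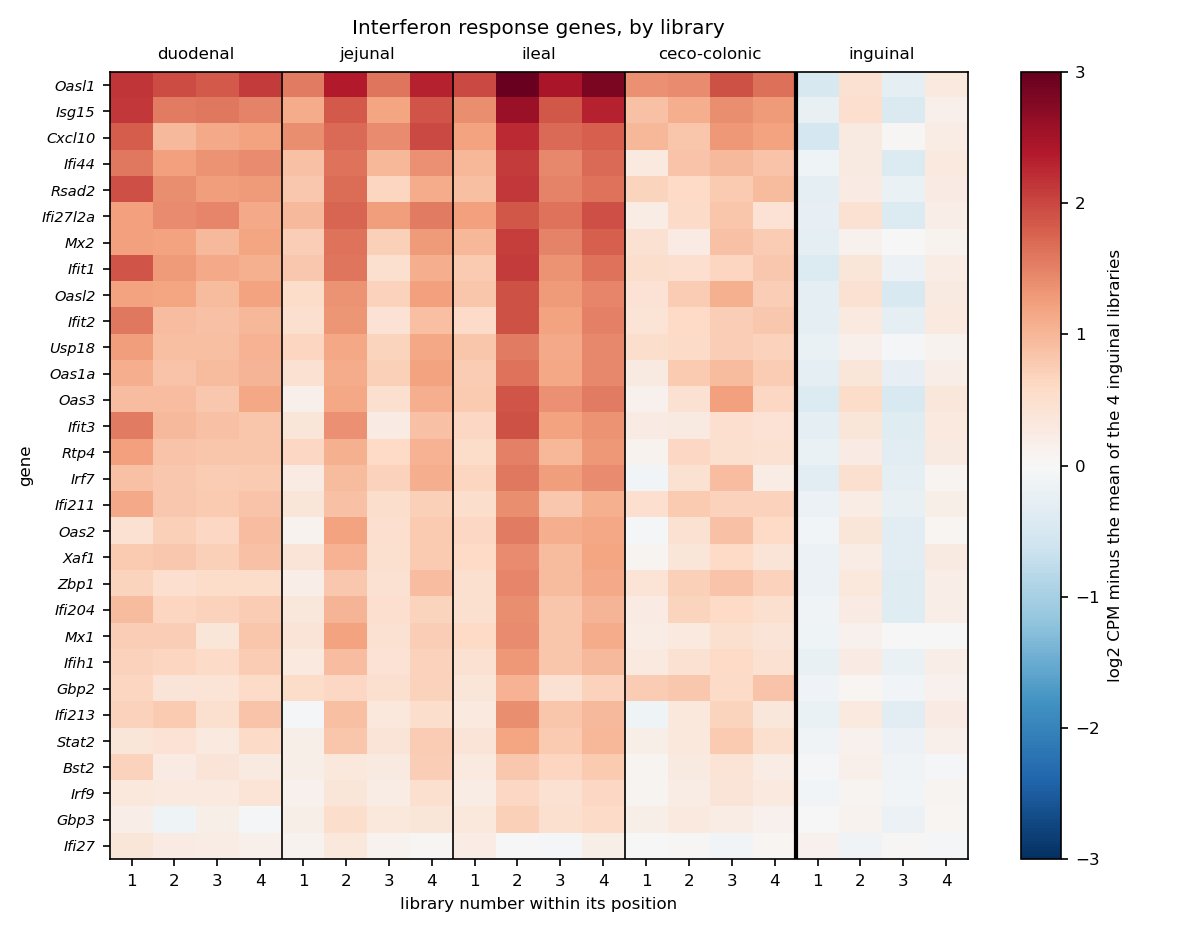
Log2 CPM of 30 of the 31 interferon response genes tested, in each library, minus the mean of the 4 inguinal libraries. Rows are ordered by fitted log2 fold change, columns are libraries, gut positions left of the thick line and inguinal right of it. Red is above the inguinal mean and blue below; each gene shown but Ifi27 was called higher in gut-draining nodes.

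Complement, lipid and xenobiotic genes gave smaller groups. The terminal complement gene C7 showed a lowest, median and highest gut level of 24.7, 39.4 and 79.7 CPM, against 2.77, 4.99, 11.8 and 8.46 CPM in inguinal nodes. Complement factor I (Cfi) stood at 2.77 to 8.64 CPM, median 4.55, in gut and 0.852 to 1.21 CPM in inguinal nodes. Vitronectin (Vtn) stood at 139 to 216 CPM, median 188, in gut and 75.5 to 104 CPM in inguinal nodes. The lectin pathway protease Masp1 lay below the range (0.695 to 1.73 CPM, median 1.02, in gut and 1.8 to 3.1 CPM in inguinal nodes). Of 27 complement genes 13 (48.1%) were called higher and 1 lower. Apolipoprotein C2 (Apoc2) stood at 6.15 to 10.01 CPM, median 7.79, in gut and 2.27 to 2.68 CPM in inguinal nodes. The sterol synthesis enzyme gene Sqle stood at 17.2 to 33.2 CPM, median 25.5, in gut and 9.53 to 12.1 CPM in inguinal nodes. Of 31 lipid genes 13 (41.9%) were called higher and 5 (16.1%) lower, 7 above the range and none below. Ahrr, a repressor and target of the aryl hydrocarbon receptor, lay above the range at 14.7 to 28.3 CPM, median 20.6, in gut and 8.77 to 9.71 CPM in inguinal nodes. Cyp2f2, a cytochrome P450 of airway and liver, measured 0.299 to 3.92 CPM in the gut libraries (median 0.796), against 38.5, 25.9, 29.9 and 31.9 CPM in the inguinal libraries. Aldh3a1, an aldehyde dehydrogenase of cornea and other epithelia, stood at 0.102 to 1.21 CPM, median 0.351, in gut and 2.99 to 5.94 CPM in inguinal nodes. The xenobiotic list had 11 of 33 (33.3%) called higher and 5 (15.2%) lower.

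Of 26 reticular stroma genes 10 (38.5%) were called higher and 7 (26.9%) lower, with 8 (30.8%) above and 2 (7.69%) below the range. By calls, coagulation genes counted 6 (24%) higher and 9 (36%) lower of 25, and clock genes 3 (16.7%) and 5 (27.8%) of 18. Immediate early genes counted 8 (36.4%) and 2 (9.09%) of 22, and cell division genes 5 (27.8%) and 0 of 18. Among all genes tested 13.4% were called higher and 12.9% lower. The counts of clock, immediate early and cell division genes turned on single libraries. Clock genes called lower numbered 2 without inguinal library 1, 3 or 4. Immediate early genes called higher numbered 5 without inguinal library 1. Cell division genes called higher numbered 0 without inguinal library 1 or 3, 10 without jejunal library 2, and 1 to 3 without any other single library except inguinal library 2.

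Other genes with wide gaps belong to no list. Above the range, Sez6l, a membrane protein known from neurons, stood at 1.69 to 3.06 CPM, median 2.21, in gut and 0.081 to 0.2 CPM in inguinal nodes. Fndc5, the precursor of irisin, stood at 37.7 to 57.1 CPM, median 44.8, in gut and 4.02 to 5.3 CPM in inguinal nodes. The tyrosine kinase gene Ptk6 had 8.51 to 13.2 CPM, median 11.02, in gut and 1.19 to 1.48 CPM in inguinal nodes. The secreted lectin-domain growth factor gene Clec11a had 22.7 to 37.97 CPM, median 27.4, in gut and 3.55 to 4.95 CPM in inguinal nodes. Below the range, Bpifb3, of a secreted lipid-binding family, had 0 to 0.14 CPM, median 0.0107, in gut and 8.21 to 14.3 CPM in inguinal nodes. Bpifb2, of the same family, had 0.023 to 0.213 CPM, median 0.0391, in gut and 5.9 to 11.1 CPM in inguinal nodes. Of 8 Bpif genes tested, 4 lay below the range and 2, Bpifa6 and Bpifb4, above it. Mucl1, a small secreted mucin-like protein, had 0 to 0.0931 CPM, median 0.0187, in gut and 1.43 to 2.08 CPM in inguinal nodes. Major urinary protein genes, carriers of scent molecules, lay below the range in 9 of 10 cases tested. Mup22 measured 0 to 0.048 CPM in the gut libraries (median 0.0123), against 18.6, 17.1, 12.2 and 18.2 CPM in the inguinal libraries, and Mup18, Mup7, Mup19 and Mup11 were at 0 in most gut libraries, with inguinal levels of 0.748 to 2.63 CPM. These genes are near-identical, so the split of reads among them is uncertain, and no fold is given for those at 0. The margin itself was often thin: 474 of the 1386 genes above and 522 of the 1418 below had a gap under 0.1, and 341 and 302 had a gap of at least 0.5. Just inside the rule on the upper side were Riok3, with 124 to 160.1 CPM, median 142, in gut and 113 to 124 CPM in inguinal nodes, and Hectd2os, with 2.93 to 4.89 CPM, median 3.36, in gut and 2.61 to 2.93 CPM in inguinal nodes. Just outside were Bhlhb9, with 10.3 to 12.9 CPM, median 10.9, in gut and 9.45 to 10.3 CPM in inguinal nodes, and Itih5, with 107 to 152 CPM, median 132, in gut and 82.4 to 107 CPM in inguinal nodes. On the lower side Pik3ip1, with 13.8 to 22.9 CPM, median 18.1, in gut and 22.9 to 30.7 CPM in inguinal nodes, and Pigv, with 22.1 to 26.5 CPM, median 24.1, in gut and 26.5 to 28.1 CPM in inguinal nodes, were just inside. Cert1, with 49.8 to 58.8 CPM, median 53.6, in gut and 58.8 to 62.3 CPM in inguinal nodes, and Slc23a2, with 58.7 to 86.5 CPM, median 79.4, in gut and 86.5 to 91.9 CPM in inguinal nodes, were just outside. Protein-coding genes made up 81.7% of those above and 79.5% of those below, against 60.1% of all genes tested.

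**Figure D4:**
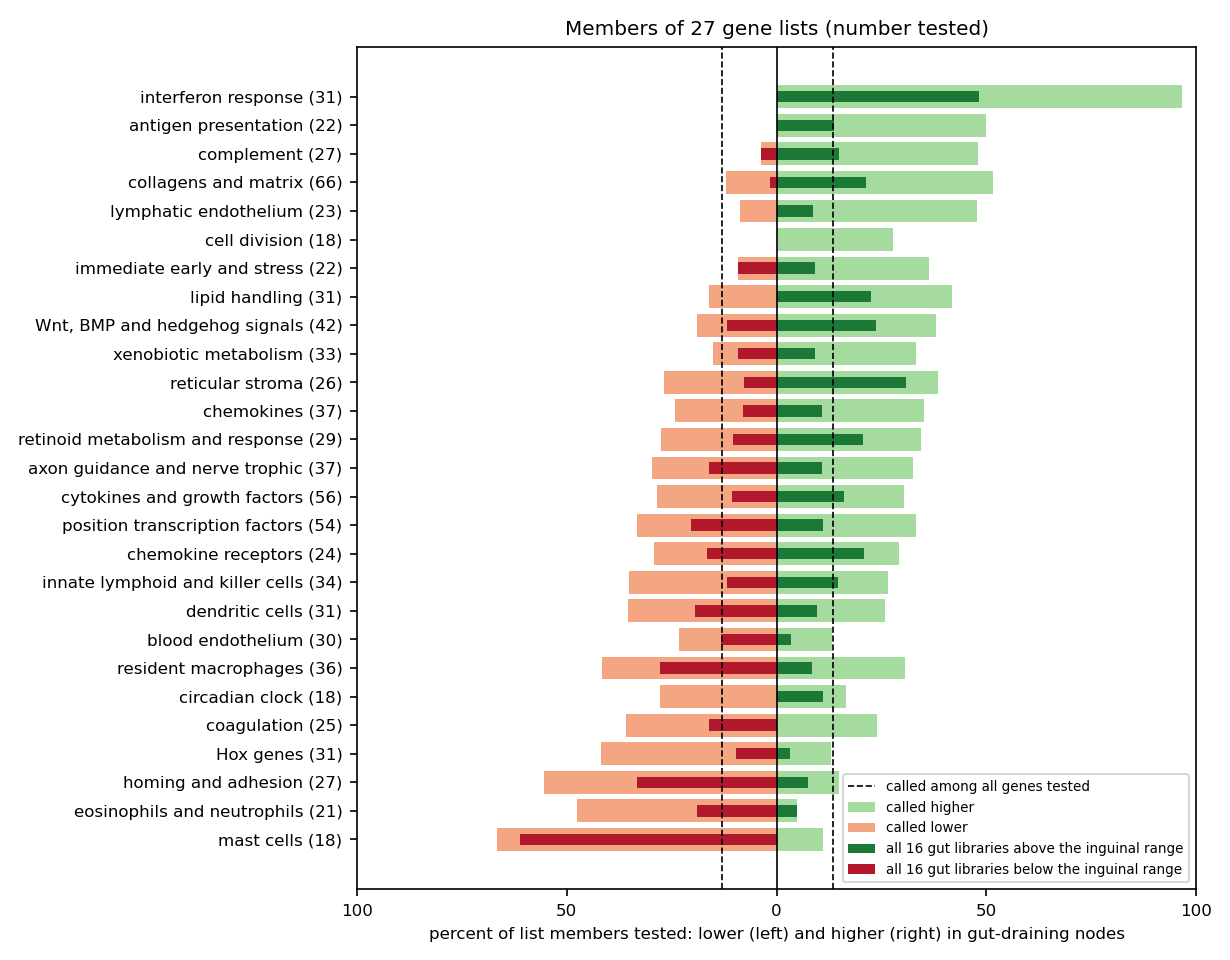
Percent of the tested members of each of 27 gene lists called higher (right) or lower (left) in gut-draining nodes, with the share lying wholly above or below the inguinal range as narrow dark bars. Dashed lines mark the share of all genes tested called higher (13.4%) and lower (12.9%); the interferon list stands at 96.8% higher and the mast cell list at 66.7% lower.

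A gene on the same side at all gut positions could still differ among them. By the F-test among the 4 gut positions 21.3% of all genes were called, against 498 (35.9%) of those above and 465 (32.8%) of those below the range, whose median CPM in the higher group was 17.6 and 11.8, against 1.86 for all genes. The genes chosen for the most level response were Nkx2-3, with log2 fold changes over inguinal of 9.41, 9.41, 9.43 and 9.44 at the duodenal, jejunal, ileal and ceco-colonic positions, Kcnh7, a potassium channel (1.93, 1.85, 1.89 and 1.86), Pla2g7, the platelet-activating factor hydrolase (1.33, 1.36, 1.33 and 1.27), Dpp4, a peptidase of fibroblasts and dendritic cells (1.22, 1.21, 1.26 and 1.31), Gimap7 (1.02, 1.04, 1.05 and 1.11) and Smim3 (1.17, 1.17, 1.12 and 1.21). The genes chosen for the widest spread included pancreatic ones. Gp2, a zymogen granule protein, measured 252 and 169 CPM in duodenal libraries 1 and 2 and 1.58 to 3.39 CPM in the other gut libraries, against 0.0486 to 0.0711 CPM in inguinal nodes. Rnase1, a pancreatic ribonuclease, measured 785 and 596 CPM in those same libraries and 0.384 to 2.17 CPM in the other gut libraries, against 0.0766 to 0.0918 CPM in inguinal nodes. Both genes therefore stayed above the range without those 2 libraries. Toward the ceco-colonic position the difference from inguinal nodes narrowed for Ccl8 (-6.76 ± 0.33, -6.50 ± 0.32, -5.74 ± 0.31 and -2.54 ± 0.27, SE, in the same order of positions), Gzmc (-3.81 ± 0.17, -3.50 ± 0.17, -2.93 ± 0.17 and -0.87 ± 0.15) and the axis gene Hoxc9 (-3.31 ± 0.13, -2.06 ± 0.12, -0.98 ± 0.12 and -0.36 ± 0.12).

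**Figure D5:**
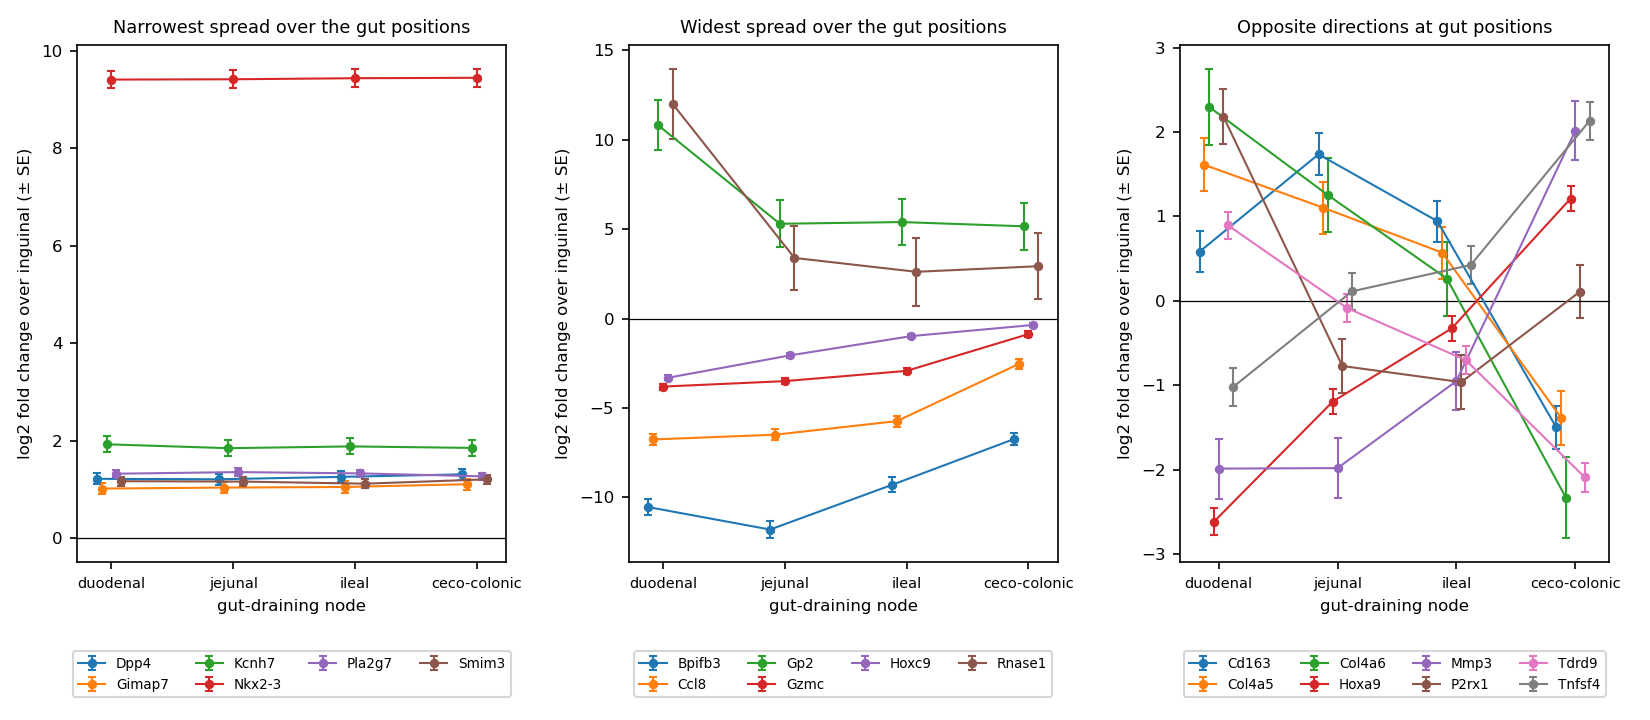
Log2 fold change over inguinal nodes at each gut position, with an SE derived from the F statistic. Shown are genes outside the range with the narrowest (left) and widest (middle) spread, and genes with opposite calls at different positions (right). Nkx2-3 lies level near 9.42, and in the right panel Mmp3, Hoxa9 and Tnfsf4 are positive at the ceco-colonic position. The 4 contrasts share the inguinal libraries.

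For 277 genes, edgeR's quasi-likelihood test called gut positions in opposite directions against inguinal nodes. Those given here were picked for the widest spread, so their values are a description. Mmp3, a matrix metalloproteinase, averaged 6.43 ± 2.33, 6.47 ± 1.82, 13.2 ± 8.88 and 103 ± 27.8 CPM, against 25.5 ± 7.16 CPM in inguinal nodes (SD, n = 4 each), in the order duodenal, jejunal, ileal and ceco-colonic before inguinal. Hoxa9 averaged 0.39 ± 0.0694, 1.05 ± 0.18, 1.91 ± 0.175 and 5.56 ± 0.468 CPM, against 2.41 ± 0.455 CPM in inguinal nodes, in the same order, rising toward the distal gut. Cd163, a macrophage scavenger receptor, averaged 17.6 ± 4.38, 39.2 ± 15.9, 22.6 ± 2.88 and 4.15 ± 1.28 CPM, against 11.8 ± 2.47 CPM in inguinal nodes, and was lowest at the ceco-colonic position. Tnfsf4, the OX40 ligand, averaged 1.4 ± 0.375, 3.07 ± 1.15, 3.82 ± 0.683 and 12.5 ± 2.41 CPM, against 2.85 ± 0.29 CPM in inguinal nodes. The log2 fold changes of P2rx1, an ATP-gated channel, were 2.18, -0.77, -0.96 and 0.11 at the duodenal, jejunal, ileal and ceco-colonic positions. Those of the linked basement membrane collagen genes Col4a5 and Col4a6 were 1.61, 1.10, 0.57 and -1.39, and 2.30, 1.25, 0.26 and -2.33. Both collagen genes were highest in duodenal libraries 2 and 3, as were summed smooth muscle markers. Their log2 CPM there was 4.61 and 4.85 for Col4a5 and 3.25 and 3.64 for Col4a6. In duodenal libraries 1 and 4 it was 2.94 and 3.25, and 0.995 and 1.30. The log2 fold changes of Tdrd9 were 0.89, -0.09, -0.70 and -2.09. The mean contrast of all gut nodes against inguinal hides such genes: Cd163 (adjusted p = 0.117), Tnfsf4 (0.103), P2rx1 (0.751), Col4a5 (0.19) and Col4a6 (0.513) were not called in it by edgeR's quasi-likelihood test.

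Libraries held 148.2 to 304.6 M estimated counts, so 1 CPM stands for at least 148 of them. The T lymphocyte marker Cd3e, part of the receptor complex, was low, at 0.178 to 0.667 CPM, median 0.373, in gut and 0.577 to 1.14 CPM in inguinal nodes. Other genes of that complex stood higher. The log2 CPM of Cd3g was 0.916 to 2.78 in gut and 1.78 to 2.11 in inguinal nodes. That of Cd247 was 3.84 to 4.39 in gut and 4.59 to 4.84 in inguinal nodes. The summed CPM of 14 T lymphocyte markers, which include Cd4, was 308 to 423 (median 384) in gut libraries, against 525 to 594 in inguinal ones (log2 difference -0.57, adjusted p = 0.0031 by a two-sided exact permutation test over 15 marker lists); 1 member was called higher and 6 lower. Cd4 made the largest part of the inguinal sum, with a log2 CPM of 7.17 to 7.77 in gut and 8.06 to 8.34 in inguinal nodes. Cd6 went the other way, at 1.43 to 2.73 in gut and -0.04 to 0.67 in inguinal nodes. Mature T lymphocytes do not form in these mice, so the sum is not a count of T cells. As a mean of log2 CPM over the markers, the difference was -0.19 (adjusted p = 0.0826 by the same exact test). Lymph node markers summed to 4634 to 7219 CPM in gut libraries, against 3885 to 4856 CPM in inguinal ones (0.36 on the log2 scale, adjusted p = 0.00929 by the same exact test), but the mean of log2 CPM turned to -0.062 (adjusted p = 0.409). The exact test shuffled the libraries over 4845 assignments as if exchangeable, although gut positions differed and same-numbered libraries tended to correlate. Its p-values may therefore be too small. Before adjustment, the exact test's p for the T lymphocyte sum, 0.000206, was the lowest it can give. Adipocyte markers summed to 222 to 2161 CPM, against 251 to 803 CPM, and smooth muscle markers to 466 to 1624 CPM, against 896 to 1060 CPM. The part of adipose, muscle and pancreatic tissue in the results above was not tested beyond the adipocyte covariate and leaving out duodenal libraries 1 and 2. In their absence 1634 genes lay above the range, with all 1386 among them, and 1558 below, with 1415 of the 1418. Rag1, the mutated gene, measured 1.98 to 3.05 CPM, median 2.44, in gut and 2.83 to 3.43 CPM in inguinal nodes (log2 fold change -0.35 ± 0.09 SE, adjusted p = 0.00828 by edgeR's quasi-likelihood test), a level that checks no label since the counts do not show which part of the gene was read.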

How the data were processed

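Gene-level estimated counts (expected counts) of 20 polyA libraries were analysed as deposited; the submitters' processing notes name the tools kallisto, edgeR and limma and the builds GRCm39 and mm10, without versions. The deposited transcript tables hold estimated counts and TPM, also made by the authors; summing length-scaled TPM per gene matched 99.7% of the gene table's values over 12483 genes (within 0.001 on the log2 scale), and plain sums 3.35%, so the values are scaled by transcript length. Values were rounded and tested with edgeR 4.0.16 in R 4.3.3: filterByExpr by position (minimum count 10, minimum total 15), TMM, 1 mean per position, and a quasi-likelihood test of the mean of the 4 gut means against inguinal. Calls used a threshold of 0.05 on Benjamini-Hochberg adjusted p-values over 29411 genes. The range rule used TMM-scaled log2 CPM with a prior count of 2. The procedure was tested on simulated data of all 20 libraries, drawn independently with 1 mean per gene for all gut positions. Differences among gut positions and correlation between same-numbered libraries were not simulated, so their effect on the calls was not tested.

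Genes named were the 15 widest gaps each way, up to 3 members per list outside the range each way, Rag1 and Rag2, the neighbours of the rule, the 8 genes of widest spread with opposite calls, and the 6 narrowest and 6 widest spreads; the text gives a part of them and adds other list members. The members and the 27 lists were chosen with earlier results of these data known. Limma 3.58.1 (voom) and DESeq2 1.42.0 served as alternatives, as did other scalings and filters. The replicate numbers entered only as an alternative block. Depth was 148.2 to 304.6 M estimated counts per library. Promoter sequences are from RefSeq, GRCm38.p6; no coordinates come from the deposited tables. Some genes of the naming rule are not reported here.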

Additional observations from a re-analysis of the deposited data

Results flagged for a closer look

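In 12 of the 237 groups of 4 libraries examined, 1 library stood apart from the other 3. Chance gives about 1 in 20, which is also the share seen. Among inguinal libraries these were Pla2g7 (43.8 CPM) and Bpifb3 (14.3 CPM) in library 1, Pdgfc (22.7 CPM) and Mfap4 (0.218 CPM) in library 2, Emx2 (2.001 CPM), Nkx3-2 (0.0766 CPM) and Cd209g (38.2 CPM) in library 3, and Gzmc (43.2 CPM) in library 4. Among gut libraries they were Rnase1 in jejunal library 1 (2.17 CPM) and ceco-colonic library 3 (0.397 CPM), Mmp3 in ileal library 2 (26.4 CPM) and Nkx2-3 in ileal library 2 (20.1 CPM).

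At different gut positions 277 genes were called in opposite directions against inguinal nodes, 207 of them with a gene symbol and a mean of at least 5 CPM in 1 or more of the 5 groups. For the 8 of these with the widest spread, the distance between the highest and lowest of the 4 log2 fold changes was 4.63 for Col4a6, 4.004 for Mmp3, 3.83 for Hoxa9, 3.24 for Cd163, 3.16 for Tnfsf4, 3.15 for P2rx1, 2.997 for Col4a5 and 2.99 for Tdrd9. The F-test among gut positions called all 8 (adjusted p from 4.86e-11 for Hoxa9 to 1.7e-05 for Col4a5, edgeR's quasi-likelihood test), but they were chosen for this spread.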

How the results depend on the processing

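The range counts of 1386 above and 1418 below moved to 341 and 302 when a gap of at least 0.5 was asked, and the count below moved to 2218 with plain CPM; the other settings kept both within 1.5 times. Leaving out 1 library at a time gave 1401 to 1603 above and 1432 to 1728 below, 3143 to 4137 called higher and 3104 to 4015 called lower, and 226 to 272 list members called higher and 184 to 212 lower. With the replicate block, 4272 genes were called higher and 4256 lower, 278 and 216 list members, and 7734 among the gut positions, against 3931, 3793, 263, 202 and 6276 without it. It moved the members called higher to 13 against 8 for immediate early genes, 3 against 1 for granulocytes, 2 against 5 for cell division and 2 against 1 for T lymphocytes. Same-numbered libraries correlated in their deviations from the position means between -0.281 and 0.614 (median 0.233, 30 of 40 pairs over 0.1), and 14 of 20 libraries correlated best with their own number, a hint of pairing from the data. The block stayed an alternative because not every pair was over 0.1 and the labels do not say what a number marks. The main fit therefore treats all libraries as independent, which same-numbered libraries may not be. Of the named genes' values under alternatives, 5083 kept direction and side of the threshold, 49 were no longer past it, and 1 turned: Mmp3 in a fit of only 2 groups (0.34 against -0.73; the cause was not tested). Mmp3 also missed the threshold under DESeq2, with the adipocyte covariate, and without any of 13 single libraries (adjusted p 0.053 to 0.186). Rnase1 missed it without any of the inguinal libraries, under limma-voom and with only 2 groups, and Gp2 under limma-voom (adjusted p = 0.289). As a mean of log2 CPM in place of a sum, the intestinal epithelium difference was past the threshold (0.67). Those of skeletal muscle (-0.29), T lymphocytes (-0.19) and B lymphocytes (-0.26) missed it. The differences of hepatocytes (0.18) and lymph node cells (-0.062) turned. A sum follows the most abundant markers, whereas a mean of log2 CPM weights each marker equally. Whether this made the changes was not tested. A fit of only 2 groups called fewer members of several lists, such as 6 against 13 Hox genes lower and 5 against 11 macrophage genes higher. Levels under 0.1 CPM rest on few counts.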
